A study of Mus musculus with 4 samples.

Results

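Genes of G protein-coupled receptors were followed in cultured mouse neural progenitor cells after depletion of Rybp, a subunit of Polycomb repressive complex 1. They were chosen by symbol, as protein-coding rows of the deposited table named for the adhesion, lysophospholipid, purine, endothelin, glutamate, GABA, adrenergic, protease-activated and chemokine receptor families or numbered as Gpr, with Gpr17 left out. The choice gave 71 genes of the 13881 in the table. The cells, taken at embryonic day 14 from C57bl/6 embryo forebrain, grew in a medium that kept them dividing, with 2% B27 and with EGF and FGF-2 at 20 ng/ml each. One group is labelled as the ctrl shRNA, with no vector named in the sources used here, and the other (shRybp) received a lentivirus with a short hairpin RNA against Rybp. Each group has 2 libraries, and whether these are independent cultures or animals is not stated, so the p-values reflect no more than how far the libraries of a group lie apart, which may be technical variation.

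G protein-coupled receptors cross the membrane as a bundle of helices, bind a ligand outside the cell and switch on heterotrimeric G proteins inside it. The alpha subunit of the G protein then raises or lowers cyclic AMP or activates phospholipase C, while arrestins and receptor kinases end the signal and Rgs proteins shorten it. In the developing forebrain such receptors read lipids, purines, transmitters, chemokines and matrix proteins, and several of them mark radial glia and astrocytes. Some proteins with a Gpr symbol sit in organelle membranes and are not established as receptors, and these are described apart.

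Total counts were between 14355308 and 17598873 per library. Rybp itself had an FPKM (fragments counted relative to gene length and sequencing depth) of 4.43 and 3.95 in the controls and 3.01 and 2.66 in shRybp, so the depletion was partial (edgeR adjusted p = 0.0017, log2 fold change -0.60 ± 0.12, where ± is the standard error here and throughout). Progenitor markers were present in all libraries, with Nes at a mean of 147 FPKM in control and 240.1 in shRybp and Sox2 at 134 and 99.95. All 8 listed astrocyte markers fell, and their summed FPKM was 697 and 710 in the controls against 414 and 428 in shRybp. Of 8 oligodendrocyte lineage markers 3 fell and 0 rose (summed FPKM 821 and 848 against 758 and 793), and of the 5 neuron markers tested 2 fell and 1 rose. Of the microglia markers only Csf1r and P2ry12 had a row, with a summed FPKM between 0.173 and 0.967. Endothelial markers (Flt1 and Kdr) summed to at most 0.765 FPKM and the pericyte and fibroblast list, with Rgs5 alone in the table, to at most 0.306.

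Receptor genes fell more often than they rose. Of the 71 genes, 47 had a mean FPKM of at least 1 and were tested, and 23 of them fell and 10 rose in shRybp at an edgeR adjusted p below 0.05. Among all 12062 genes tested 16.7% fell and 16.3% rose. Falls of at least 1.5-fold were seen for 12 of the 47 receptor genes, against 4.87% of all genes, and rises of that size for 4, against 2.82%. The median log2 fold change was -0.15 over the 47 receptor genes and 0.00 over all genes tested. The count of rises was the less stable of these, with 5 under DESeq2, 5 without shRybp replicate 2 and 6 without control replicate 1. The median of the receptor genes lay between -0.27 (without shRybp replicate 2) and -0.12 (library totals without TMM) over the 11 alternatives. With library totals the median of all genes was 0.04.

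**Figure D1:**
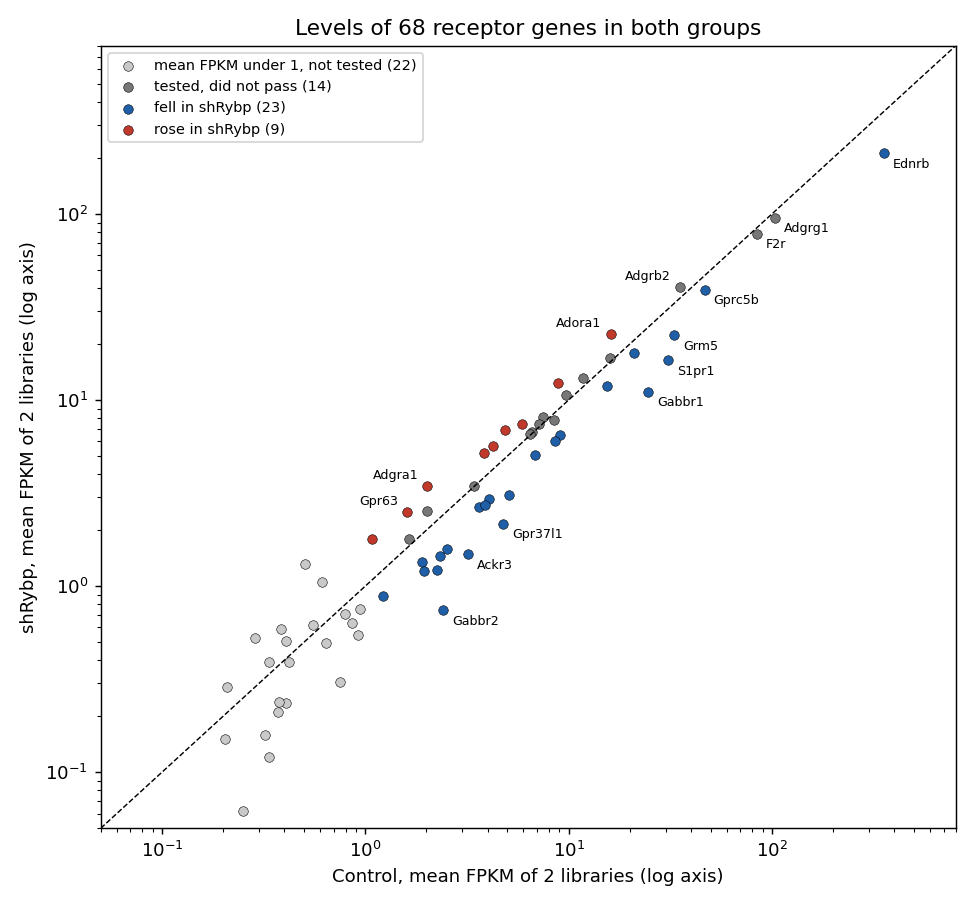
Mean FPKM of 68 of the receptor genes in control (x axis) and shRybp (y axis), both on log axes, each point a gene and the dashed line equal levels. Points below the line outnumber those above it among the tested genes, with 23 that fell and 9 that rose among those drawn, and Ednrb is the highest in both groups.

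The receptor genes spanned a wide range of levels. Of the 71, 15 had a mean FPKM of at least 10 and 7 of at least 20. Ednrb alone made up 38.1% and 36.2% of the summed FPKM of all 71 genes in the controls and 29.5% and 26.9% in shRybp. Its mean of 283 FPKM ranked 80th among the 13881 genes. Adgrg1 (99.2 FPKM), F2r (81.2), Gprc5b (42.9), Adgrb2 (37.8), Grm5 (27.6), S1pr1 (23.7) and Adgrl1 (19.4) followed. The other 24 genes, with a mean FPKM between 0.127 and 0.913, were below the level for testing.

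**Figure D2:**
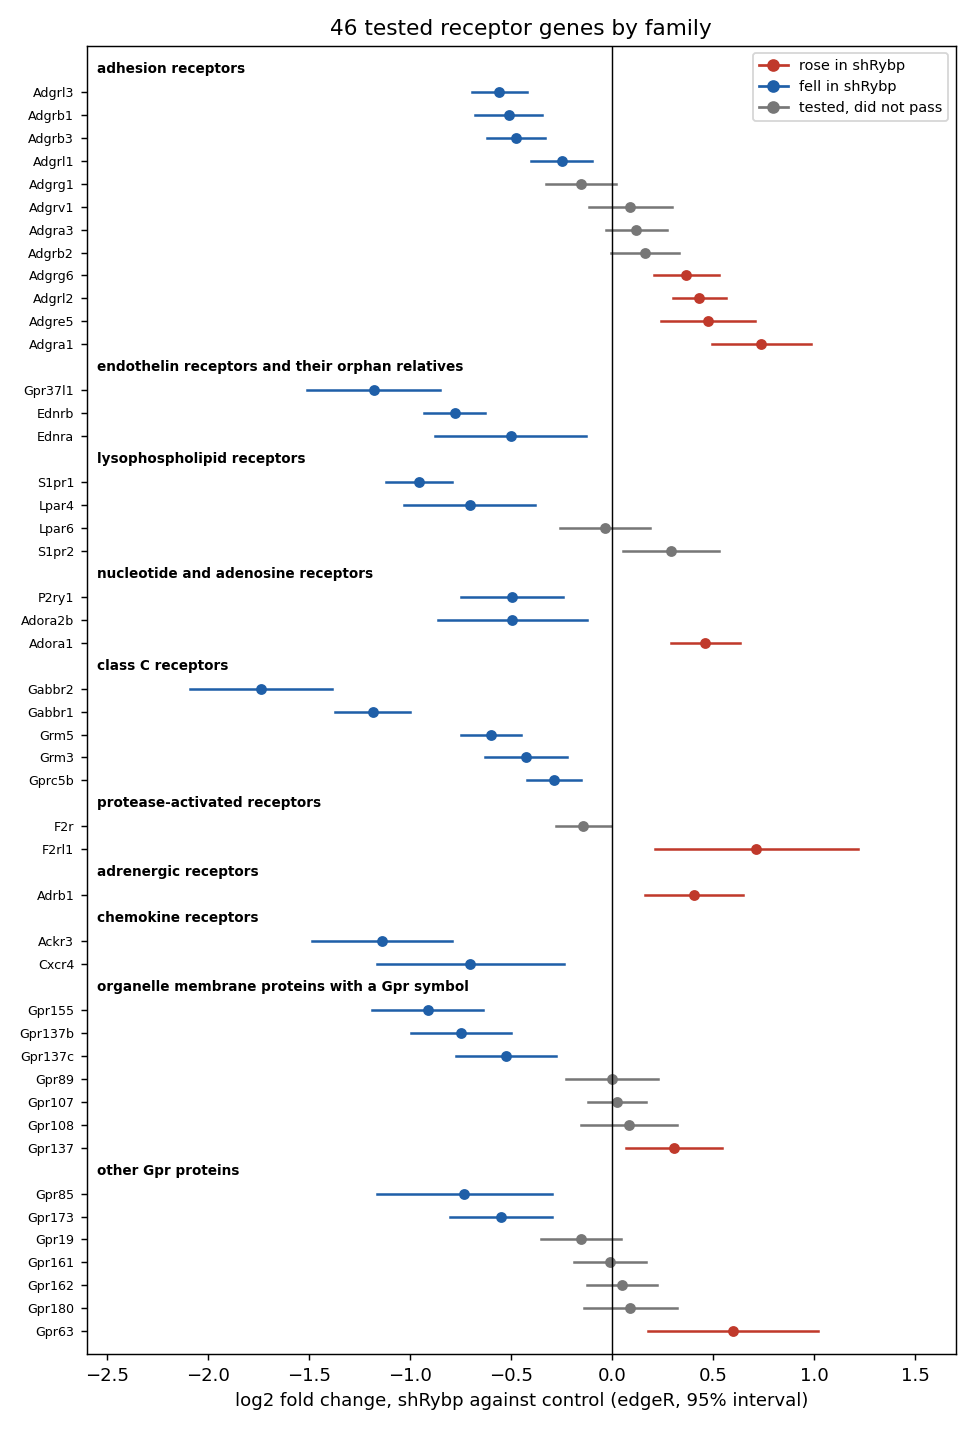
Log2 fold changes of 46 of the tested receptor genes in shRybp against control, with 95% intervals from the edgeR fit, grouped by family. All 5 tested class C genes and all 3 of the endothelin group lie to the left of 0, while adhesion receptors lie on both sides, from Adgrl3 at -0.56 to Adgra1 at 0.74.

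The subunits of the GABA type B receptor fell most among the tested genes. This receptor for the transmitter GABA works as a pair, in which Gabbr1 binds the ligand and Gabbr2 couples to the G protein. Gabbr2 (mm10 chromosome 4, 46662305 to 46991873, minus strand) was at 2.10 and 2.74 FPKM in the controls and 0.728 and 0.756 in shRybp, 3.34-fold lower (edgeR adjusted p = 8.2e-06, log2 fold change -1.74 ± 0.16). Gabbr1 (chromosome 17, 37045966 to 37075067, plus strand) had 22.5 and 26.7 FPKM in the controls and 10.3 and 11.8 in shRybp (edgeR adjusted p = 1.2e-06, log2 fold change -1.19 ± 0.09). For both genes each shRybp library was below each control library. The FPKM of Gabbr1 was 10.7 and 9.72 times that of Gabbr2 in the controls and 14.2 and 15.6 times in shRybp. Gad1 and Gad2, the enzymes that make GABA, had mean levels of 0.585 and 0.213 FPKM and were not tested.

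The remaining class C receptor genes that were tested also fell. Grm5, a glutamate receptor coupled to phospholipase C (chromosome 7, 87584168 to 88134907, plus strand), had 33.3 and 32.6 FPKM in the controls and 23.6 and 20.9 in shRybp (edgeR adjusted p = 4.3e-05, log2 fold change -0.60 ± 0.07). Grm3, a glutamate receptor that lowers cyclic AMP, had 14.6 and 16.4 FPKM against 12.5 and 11.2 (edgeR adjusted p = 0.0039, log2 fold change -0.43). The orphan receptor gene Gprc5b, the fourth highest of the 71, had 46.4 and 46.9 FPKM against 37.8 and 40.5, a smaller change (edgeR adjusted p = 0.0032, log2 fold change -0.29). It lost the call only under limma on log2(FPKM + 0.1), and it shares 13.1% of its exonic bases with Iqck on the opposite strand, a gene with a mean of 0.292 FPKM. The other 5 class C genes were below the level for testing.

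Of the endothelin receptors and their orphan relatives, the 3 genes tested all fell. Ednrb, the endothelin type B receptor of astrocytes and progenitors (chromosome 14, 103814625 to 103844402, minus strand), had 362 and 347 FPKM in the controls and 219 and 204 in shRybp, 1.72-fold lower (edgeR adjusted p = 4.9e-06, log2 fold change -0.78 ± 0.07). Its counts of 13426 to 27206 per library made it the most deeply sampled of the 71 genes. Gpr37l1, an orphan receptor known from astrocytes (chromosome 1, 135160234 to 135167681, minus strand), had 4.67 and 4.88 FPKM against 2.18 and 2.15 (edgeR adjusted p = 0.00010, log2 fold change -1.18 ± 0.15). The replicates of each group nearly coincided and the groups did not overlap. Ednra, the type A receptor, was far lower at 1.27 and 1.18 FPKM against 0.863 and 0.911 (edgeR adjusted p = 0.040, log2 fold change -0.50). Its call was lost when any 1 library was left out (edgeR adjusted p from 0.0505 without control replicate 2 to 0.16 without control replicate 1), under DESeq2 (adjusted p = 0.21) and with library totals without TMM (edgeR adjusted p = 0.054). Gpr37, with a mean of 0.753 FPKM, was not tested.

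Astrocyte markers fell in the same libraries as Ednrb, Gpr37l1 and the glutamate and GABA receptor genes, as given above. So did 3 of the 8 oligodendrocyte lineage markers and 2 of the 5 neuron markers tested, of which 0 and 1 rose. Of the 7 progenitor markers tested, 3 fell and 2 rose. The part of any of these cell types in the receptor falls was not tested. In bulk RNA, fewer cells of a type and less RNA per cell cannot be told apart.

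**Figure D3:**
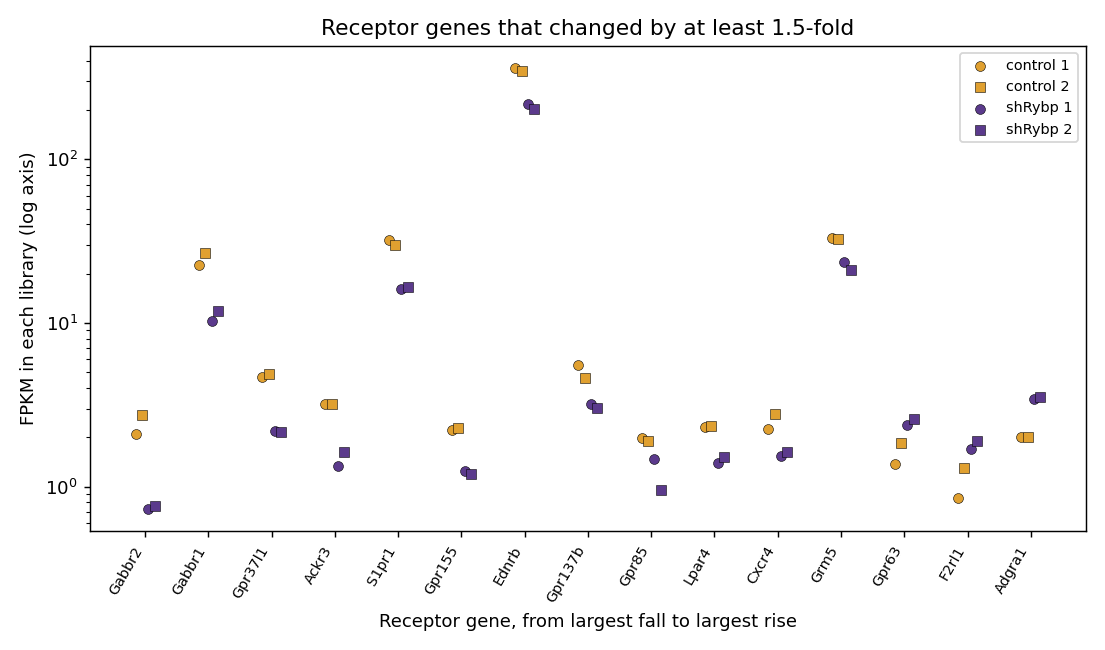
FPKM in each of the 4 libraries, on a log axis, for 15 receptor genes that passed the test with a change of at least 1.5-fold, ordered from the largest fall (Gabbr2) to the largest rise drawn (Adgra1). In each of the 15 genes the control libraries (orange) and the shRybp libraries (purple) do not overlap. The genes were chosen by the test on these same libraries, so the separation is not further evidence of a change.

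Promoters of genes from both directions are shown because their density of CG dinucleotides, the sequence feature of the CpG islands on which Polycomb complexes gather, differed widely. The sequences are RefSeq's on GRCm38.p6 (mm10), 300 bases each, 5′ to 3′ on the gene's strand, with each CG in capitals. The window was read as 250 bases before to 50 after a start. This was the most frequent offset from the RefSeq gene start, seen in 17086 of 22861 promoters compared. A window can lie inside the gene span given above, as that of Ednrb does. The Gabbr2 promoter (chr4:46991665-46991964, minus strand) holds 46 CG. That of Gabbr1 (chr17:37045716-37046015, plus strand) holds 18. Ednrb (chr14:103843652-103843951, minus strand) has 15 and Gpr37l1 (chr1:135167632-135167931, minus strand) has 7. Adgra1 (chr7:139833924-139834223, plus strand), a gene that rose, has 17.
Gabbr2: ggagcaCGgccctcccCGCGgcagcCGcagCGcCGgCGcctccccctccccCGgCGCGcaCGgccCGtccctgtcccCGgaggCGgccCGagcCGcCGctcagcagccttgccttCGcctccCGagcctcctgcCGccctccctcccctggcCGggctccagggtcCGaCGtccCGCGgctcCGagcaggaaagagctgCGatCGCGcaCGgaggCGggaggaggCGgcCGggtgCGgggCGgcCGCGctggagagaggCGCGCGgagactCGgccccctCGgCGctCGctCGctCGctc
Gabbr1: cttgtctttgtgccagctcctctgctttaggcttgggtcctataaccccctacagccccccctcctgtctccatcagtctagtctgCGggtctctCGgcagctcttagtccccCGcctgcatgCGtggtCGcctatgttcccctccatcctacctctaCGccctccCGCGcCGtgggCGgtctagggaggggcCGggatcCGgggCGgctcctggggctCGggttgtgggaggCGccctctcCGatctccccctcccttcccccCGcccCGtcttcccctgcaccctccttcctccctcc
Ednrb: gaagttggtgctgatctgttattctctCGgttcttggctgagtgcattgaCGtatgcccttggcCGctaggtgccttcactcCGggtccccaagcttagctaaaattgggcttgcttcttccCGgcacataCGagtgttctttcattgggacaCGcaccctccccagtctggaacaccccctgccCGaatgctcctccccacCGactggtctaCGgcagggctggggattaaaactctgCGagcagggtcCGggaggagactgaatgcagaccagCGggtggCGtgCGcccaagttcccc
Gpr37l1: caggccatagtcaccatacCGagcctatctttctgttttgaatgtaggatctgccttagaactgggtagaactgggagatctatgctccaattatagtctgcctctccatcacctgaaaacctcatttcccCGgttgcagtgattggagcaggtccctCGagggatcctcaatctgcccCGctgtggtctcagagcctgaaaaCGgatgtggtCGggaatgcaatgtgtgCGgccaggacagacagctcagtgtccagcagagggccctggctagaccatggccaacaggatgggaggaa
Adgra1: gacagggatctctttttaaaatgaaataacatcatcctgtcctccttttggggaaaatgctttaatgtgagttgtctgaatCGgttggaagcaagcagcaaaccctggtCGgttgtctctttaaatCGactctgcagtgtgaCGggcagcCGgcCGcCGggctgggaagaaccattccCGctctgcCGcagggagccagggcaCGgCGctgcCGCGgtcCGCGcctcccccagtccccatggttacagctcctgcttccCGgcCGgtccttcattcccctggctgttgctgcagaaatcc
Gabbr2 and Gpr37l1, the richest and the poorest of the 5, both fell by more than 2-fold.

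RefSeq promoters were found for 56 of the 71 genes, 73 promoters in all. Their median was 18 CG, against 7 over all 32851 promoters, of which the middle 50% held between 3 and 20. Those promoters belong to 27025 genes, with or without a row in the table. The difference therefore cannot be read as a trait of receptor genes. The 21 promoters of genes that fell (19 genes) and the 12 of genes that rose (7 genes) had the same median of 20 CG. The median was 14 for genes that did not pass and 18 for those not tested. The letters TGGGAA, the core of the motif bound by Rbpj, the DNA-binding partner of Notch receptors, were searched on both strands and stood in 3 of the 21 promoters of genes that fell (14.3%), 3 of the 12 of genes that rose (25%) and 25.6% of all promoters. Some genes have several promoters, and these are counts of promoters. For genes that rose the matches lay in Adgra1, Adora1 and Gpr137, and for genes that fell in Adgrb3, Gpr137c and Grm3. Of the 5 printed, only the Adgra1 promoter holds the letters. These matches describe letters in a window and say nothing of binding.

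Among receptors for lysophospholipids, signalling lipids released from membranes and carried in serum, 2 of the 4 tested fell. S1pr1, a receptor of sphingosine-1-phosphate (chromosome 3, 115710433 to 115715072, minus strand), had 32.1 and 29.9 FPKM in the controls and 16.2 and 16.6 in shRybp, 1.94-fold lower (edgeR adjusted p = 2.1e-06, log2 fold change -0.95 ± 0.08). Lpar4, a receptor of lysophosphatidic acid, had 2.32 and 2.33 FPKM against 1.39 and 1.52 (edgeR adjusted p = 0.0031, log2 fold change -0.71 ± 0.15). S1pr2, which binds the same lipid as S1pr1, had 1.85 and 2.19 FPKM against 2.55 and 2.51 and did not pass (edgeR adjusted p = 0.060, log2 fold change 0.29, with a 95% interval of 0.05 to 0.53). It did pass without control replicate 2 (edgeR adjusted p = 0.018, log2 fold change 0.40) and with library totals without TMM (edgeR adjusted p = 0.042, log2 fold change 0.33). The FPKM of S1pr1 was 17.4 and 13.6 times that of S1pr2 in the controls and 6.36 and 6.61 times in shRybp. Lpar6 had 3.58 and 3.29 FPKM against 3.41 and 3.47 (edgeR adjusted p = 0.82, log2 fold change -0.04, with a 95% interval of -0.26 to 0.19) and lies within Rb1 on the opposite strand, with 7.56% of its exonic bases shared; Rb1 fell (log2 fold change -0.35).

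Purine receptors were split. Adora1, the adenosine receptor that lowers cyclic AMP (chromosome 1, 134199223 to 134235431, minus strand), had 14.8 and 17.4 FPKM in the controls and 21.8 and 23.7 in shRybp (edgeR adjusted p = 0.00080, log2 fold change 0.46 ± 0.08). P2ry1, a receptor of ADP, had 4.28 and 3.81 FPKM against 2.97 and 2.92 (edgeR adjusted p = 0.0060, log2 fold change -0.50 ± 0.12). Both kept their call under all 11 alternatives. Adora2b, the adenosine receptor that raises cyclic AMP, had 3.66 and 3.63 FPKM against 2.56 and 2.74 (edgeR adjusted p = 0.041, log2 fold change -0.49). Leaving out any 1 library ended its call (edgeR adjusted p from 0.084 without control replicate 2 to 0.15 without shRybp replicate 1), as did DESeq2 (adjusted p = 0.22) and library totals without TMM (edgeR adjusted p = 0.056). The FPKM of Adora1 was 4.05 and 4.80 times that of Adora2b in the controls and 8.49 and 8.65 times in shRybp. On the strand opposite to Adora1 lies Mybph, which covers 20.1% of its exonic bases, and an antisense gene covers 23.1% of those of P2ry1; neither had a row in the table, and reads cannot be assigned by strand here.

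Adhesion receptors, which carry long extracellular regions that bind matrix or other cells, moved both ways, with 4 of 12 tested falling and 4 rising. Of the latrophilins, receptors of teneurins and Flrt proteins at cell contacts, Adgrl3 had 8.64 and 8.60 FPKM in the controls and 6.17 and 5.84 in shRybp (edgeR adjusted p = 3.9e-05, log2 fold change -0.56 ± 0.06). Adgrl2 moved the other way, from 8.83 and 9.0 FPKM to 12.4 and 12.3 (edgeR adjusted p = 0.00017, log2 fold change 0.43 ± 0.06). The FPKM of Adgrl2 was 1.02 and 1.05 times that of Adgrl3 in the controls and 2.01 and 2.10 times in shRybp. Adgrl1 had 19.4 and 22.4 FPKM against 17.7 and 18.2 (edgeR adjusted p = 0.016, log2 fold change -0.25). Its call was lost without control replicate 2 (edgeR adjusted p = 0.17, log2 fold change -0.16), without shRybp replicate 1 (edgeR adjusted p = 0.060) and under limma with either pseudocount. Genes on the opposite strand without a row in the table cover 12.9% of the exonic bases of Adgrl1 and 8.91% of those of Adgrl3.

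Adgrb1, which helps cells to take up dying cells, fell from 8.91 and 9.19 FPKM to 6.49 and 6.53 (edgeR adjusted p = 0.00030, log2 fold change -0.51 ± 0.08). Its relative Adgrb3, a receptor found at synapses, fell from 6.98 and 6.71 FPKM to 5.16 and 4.95 (edgeR adjusted p = 0.00017, log2 fold change -0.47 ± 0.07). The third of these, Adgrb2, was the most abundant at 33.2 and 37.2 FPKM in the controls and 37.2 and 43.4 in shRybp, where the nearest libraries of the groups touched, and did not pass (edgeR adjusted p = 0.13, log2 fold change 0.16, with a 95% interval of -0.01 to 0.33). It passed without control replicate 2 (edgeR adjusted p = 0.044, log2 fold change 0.23) and without shRybp replicate 1 (0.27, edgeR adjusted p = 0.021).

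Adgra1, an orphan adhesion receptor (chromosome 7, 139834174 to 139878088, plus strand), rose from 2.02 FPKM in both controls to 3.41 and 3.51 (edgeR adjusted p = 0.00033, log2 fold change 0.74 ± 0.11). Adgrg6, a receptor required for myelination by Schwann cells, rose from 4.27 and 4.25 FPKM to 5.56 and 5.70 (edgeR adjusted p = 0.0024, log2 fold change 0.37 ± 0.07). Adgre5, known as the leukocyte antigen CD97, had 4.85 and 4.92 FPKM against 6.26 and 7.63 (edgeR adjusted p = 0.0048, log2 fold change 0.48 ± 0.11). That rise was lost without shRybp replicate 2 (edgeR adjusted p = 0.093, log2 fold change 0.32). Adgre5 shares 23.8% of its exonic bases with Ddx39 on the opposite strand, which rose as well (log2 fold change 0.63), and with the strand of the reads unknown their counts cannot be separated.

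Adgrg1, a receptor of collagen in the developing cortex, was the second highest of the 71 genes and did not pass. Its FPKM was 98.8 and 108 in the controls and 87.2 and 103 in shRybp, so the groups overlapped (edgeR adjusted p = 0.16, log2 fold change -0.15, with a 95% interval of -0.33 to 0.02). Without shRybp replicate 2 it passed (edgeR adjusted p = 0.023, log2 fold change -0.28). Adgra3 (log2 fold change 0.12) and Adgrv1 (0.09) did not pass either.

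Of the protease-activated receptors, which are switched on when a protease cuts their outer end, the abundant one did not pass and the rare one rose. F2r, the thrombin receptor, had 87.2 and 81.1 FPKM in the controls and 78.2 and 78.3 in shRybp (edgeR adjusted p = 0.0998, log2 fold change -0.14, with a 95% interval of -0.28 to -0.01). F2rl1, cut by trypsin-like proteases, had 0.848 and 1.30 FPKM against 1.7 and 1.89 (edgeR adjusted p = 0.031, log2 fold change 0.71 ± 0.23), from 41, 57, 67 and 85 counts. That call was lost without control replicate 1 (edgeR adjusted p = 0.23, log2 fold change 0.43), without shRybp replicate 2 (0.64, edgeR adjusted p = 0.13), under DESeq2 (adjusted p = 0.15) and under limma on log2(FPKM + 0.1) (adjusted p = 0.059).

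Adrb1, an adrenergic receptor that raises cyclic AMP in response to noradrenaline and adrenaline, rose. Its FPKM was 3.72 and 3.96 in the controls and 5.35 and 5.09 in shRybp (edgeR adjusted p = 0.014, log2 fold change 0.41 ± 0.11). The groups did not overlap, but the call was lost without control replicate 1 (edgeR adjusted p = 0.051), without shRybp replicate 1 (edgeR adjusted p = 0.082) and under DESeq2 (adjusted p = 0.094).

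Both chemokine receptors, which bind Cxcl12, fell. Ackr3, an atypical receptor that takes up the chemokine, had 3.19 and 3.22 FPKM in the controls and 1.33 and 1.64 in shRybp (edgeR adjusted p = 0.00019, log2 fold change -1.14 ± 0.16). Cxcr4, the signalling receptor, had 2.26 and 2.77 FPKM against 1.54 and 1.62 (edgeR adjusted p = 0.024, log2 fold change -0.70 ± 0.21). Its call was lost without control replicate 2 (edgeR adjusted p = 0.14, log2 fold change -0.56), without shRybp replicate 1 (edgeR adjusted p = 0.087), without shRybp replicate 2 (edgeR adjusted p = 0.075) and under DESeq2 (adjusted p = 0.15). Cxcl12 itself had a mean of 0.150 FPKM and was not tested.

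Proteins of organelle membranes that carry a Gpr symbol were split. Gpr155, a cholesterol sensor of lysosomes, fell from 2.21 and 2.28 FPKM to 1.25 and 1.19 (edgeR adjusted p = 0.00018, log2 fold change -0.91 ± 0.13). The lysosomal membrane protein gene Gpr137b fell from 5.56 and 4.58 FPKM to 3.20 and 3.02 (edgeR adjusted p = 0.00035, log2 fold change -0.75 ± 0.11). A pseudogene copy, Gpr137b-ps, was at a like level (a mean of 5.46 FPKM in control and 4.15 in shRybp) and also fell (log2 fold change -0.43), and reads can be shared between the copies, so the value of Gpr137b is uncertain. Gpr137c, of the same family, had 1.91 and 1.88 FPKM against 1.33 and 1.37 (edgeR adjusted p = 0.0036, log2 fold change -0.52). Gpr137 had 5.51 and 6.27 FPKM against 6.76 and 8.14 (edgeR adjusted p = 0.047, log2 fold change 0.31). It was lost without control replicate 1 (edgeR adjusted p = 0.20), without shRybp replicate 2 (edgeR adjusted p = 0.43, log2 fold change 0.17), under DESeq2 and under limma. Gpr137 shares 15.4% of its exonic bases with Bad on the opposite strand, which rose too (log2 fold change 0.33). The Golgi proteins Gpr107, Gpr108 and Gpr89 did not pass, with log2 fold changes of 0.02, 0.08 and -0.00, and 24.8% of the exonic bases of Gpr89 are shared with Pdzk1 on the opposite strand.

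Of the other orphan and Gpr-numbered genes, 2 of 7 tested fell and 1 rose. Gpr85 and Gpr173 are close relatives in a family of orphan receptors conserved in vertebrate brain. Gpr85 had 1.99 and 1.90 FPKM in the controls and 1.46 and 0.954 in shRybp (edgeR adjusted p = 0.014, log2 fold change -0.73 ± 0.20), and the call was lost without shRybp replicate 2 (edgeR adjusted p = 0.15, log2 fold change -0.44), under DESeq2 (adjusted p = 0.052) and under limma on log2(FPKM + 0.1) (adjusted p = 0.066). Gpr173 had 3.77 and 3.97 FPKM against 2.95 and 2.48 (edgeR adjusted p = 0.0030, log2 fold change -0.55 ± 0.12). Gpr63, an orphan receptor of the brain, had 1.38 and 1.84 FPKM against 2.39 and 2.59 (edgeR adjusted p = 0.031, log2 fold change 0.60 ± 0.19). Its call was lost without control replicate 1 (edgeR adjusted p = 0.19, log2 fold change 0.41), without shRybp replicate 1 (edgeR adjusted p = 0.058), without shRybp replicate 2 (edgeR adjusted p = 0.13) and under DESeq2 (adjusted p = 0.16). Gpr161, a receptor of the primary cilium that restrains Hedgehog signalling, had 6.38 and 6.54 FPKM in the controls and 6.45 and 6.70 in shRybp and did not pass (edgeR adjusted p = 0.94, log2 fold change -0.01, with a 95% interval of -0.19 to 0.17). Gpr162, Gpr180 and Gpr19 did not pass, with log2 fold changes of 0.05, 0.09 and -0.15.

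The 24 genes below a mean FPKM of 1 had between 44 and 456 counts summed over the 4 libraries. None entered the fit reported above. In the fit without that filter 6 fell and 2 rose, against 16.0% and 15.3% of all 13881 genes. Most of those 13881 genes had a mean FPKM of at least 1, so the shares are not those of genes at a like level. Adra1b, an alpha adrenergic receptor coupled to phospholipase C, had 34 and 24 counts in the controls and 60 and 78 in shRybp (edgeR adjusted p = 0.00075 without the filter, log2 fold change 1.34). Adra2a, which lowers cyclic AMP, had 33 and 22 counts against 8 and 10 (edgeR adjusted p = 0.0074 without the filter, log2 fold change -1.51). The others that passed were Adgra2 (0.76), a coactivator of Wnt signals in brain vessels, and Gpr146 (-1.32), Gpr149 (-2.04), Gpr83 (-1.06), Gpr158 (-0.85) and Gpr179 (-0.77). Gpr149 rested on 19 and 17 counts in the controls and 5 and 3 in shRybp, and Gpr83 on 37 and 19 against 11 and 14. Gpr146 had 77 and 93 counts against 28 and 36, Gpr158 48 and 54 against 25 and 28, and Gpr179 154 and 140 against 72 and 90. For Adgra2 the rise rested on 1 library, with 60 and 59 counts in the controls and 63 and 129 in shRybp.

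Genes on either side of the receptors were taken from lists of ligands, G proteins and downstream enzymes. For comparison, 16.7% of all genes tested fell and 16.3% rose. Of 18 ligand and ligand enzyme genes tested, 9 fell and 1 rose, with a median log2 fold change of -0.20. Enpp2, which encodes autotaxin, the secreted enzyme that makes lysophosphatidic acid, fell from 17.8 and 19.0 FPKM to 8.41 and 7.37 (edgeR adjusted p = 4.7e-07, log2 fold change -1.26 ± 0.08). Plpp3, a phosphatase that degrades lysophospholipids at the cell surface, fell from 154 and 163 FPKM to 93.8 and 98.3 (edgeR adjusted p = 2.9e-06, log2 fold change -0.76 ± 0.06). The genes of an enzyme that makes the ligand of Lpar4 and of one that removes it both had lower levels in the libraries in which Lpar4 and S1pr1 fell. Psap, a lysosomal activator protein that is also a proposed ligand of Gpr37l1 and Gpr37, fell from 341 and 342 FPKM to 165 and 181 (edgeR adjusted p = 4.7e-07, log2 fold change -1.02 ± 0.07). Flrt2, a ligand of latrophilins, fell from 3.55 and 3.53 FPKM to 1.95 and 1.69 (edgeR adjusted p = 1.8e-05, log2 fold change -0.99 ± 0.10).

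**Figure D4:**
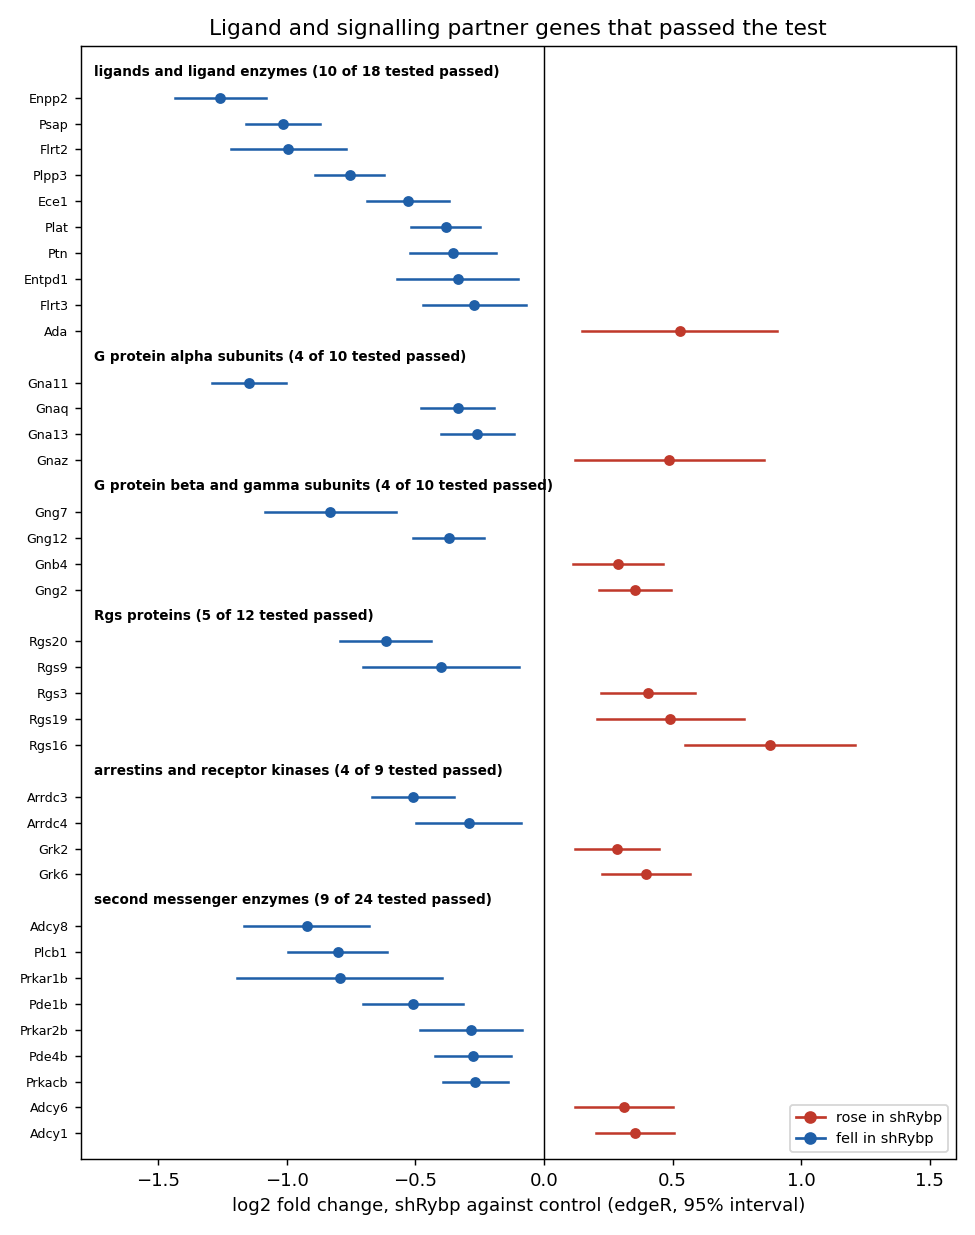
Log2 fold changes in shRybp against control, with 95% intervals from the edgeR fit, of the ligand and signalling partner genes that passed the test, by list. The largest fall is that of Enpp2 (-1.26) and the largest rise that of Rgs16 (0.88).

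Of 10 G protein alpha subunit genes tested, 3 fell and 1 rose. Several counts in the lists below lie near the shares over all genes tested (16.7% fell and 16.3% rose). Gna11, an alpha subunit that activates phospholipase C, fell from 31.4 and 32.0 FPKM to 14.6 and 14.7 (edgeR adjusted p = 2.1e-07, log2 fold change -1.15 ± 0.07). Of 10 beta and gamma subunit genes 2 fell and 2 rose, with Gng7 lower at 4.57 and 4.70 FPKM against 2.75 and 2.59 (edgeR adjusted p = 0.00019, log2 fold change -0.83). Of 12 Rgs genes 2 fell and 3 rose. Rgs20 fell from 19.1 and 17.3 FPKM to 12.5 and 11.8 (edgeR adjusted p = 0.00012, log2 fold change -0.62), and Rgs16 rose from 2.86 and 3.69 FPKM to 5.68 and 6.61 (edgeR adjusted p = 0.00085, log2 fold change 0.88). Of 9 arrestin, arrestin-domain and receptor kinase genes 2 fell and 2 rose, none by 1.5-fold. Of 24 second messenger enzyme genes 7 fell and 2 rose, with a median of -0.06. Those that fell by 1.5-fold or more were the phospholipase gene Plcb1 (log2 fold change -0.80), the adenylyl cyclase gene Adcy8 (-0.92) and Prkar1b (-0.80), a regulatory subunit of protein kinase A. The median log2 fold changes of the alpha subunit, beta and gamma subunit, Rgs and arrestin lists lay between -0.10 and 0.095.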

How the data were processed

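RNA was counted in 4 libraries, 2 per group, as named by the labels. The authors deposited raw read counts per gene and library beside FPKM values, per the file headers, and named the knockdown columns KD, read here as shRybp. Coordinates are on mm10, as the submitters' processing notes have it. For the aligner, the counting tool and the strand setting, no statement was found: not given in the sources used here. Of 13881 genes, none with under 40 counts over the libraries, 12187 are protein-coding. The symbol rule matched 74 rows; 2 were pseudogenes and 1 was left out by name, leaving 71. Chromosomes, strands and exon overlaps came from GENCODE release M21, in which all 71 had the table's start and end.

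The 12062 genes averaging 1 FPKM or more were tested on the counts with edgeR 4.0.16 in R 4.3.3 (TMM scaling, quasi-likelihood fit, two-sided test, Benjamini-Hochberg over all genes tested, threshold 0.05); "rose" and "fell" mean passing it. Standard errors are the absolute log2 fold change over the square root of the F statistic; intervals are 95%. The scripts were tested on simulated data. Replicates differed by more than counting noise (chi-square per degree of freedom 5.18 between controls and 4.36 between shRybp libraries). Members named with their values are those that changed by at least 1.5-fold, had the 8 highest levels or otherwise passed. Partner genes that changed by at least 1.5-fold were named, some with the log2 fold change only. Besides these, a few other members and list genes were named after their values were seen. A few members are counted in the totals but are not reported here by name or drawn. Members, families and lists were chosen with earlier results of these data known. The 11 alternatives are no filter, a filter of 0.5 FPKM, DESeq2 1.42.0, library totals, limma 3.58.1 on log2(FPKM + 1) and on log2(FPKM + 0.1), the replicate block and each library left out; for partner genes and Rybp they were added after the data were seen. Counts are printed for the lowest genes, where counting error limits precision.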

Additional observations from a re-analysis of the deposited data

How the results depend on the processing

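No receptor gene that passed changed direction under any of the 11 alternatives. Of the 23 that fell, 17 passed under each alternative, as did 4 of the 10 that rose (Adgra1, Adgrg6, Adgrl2 and Adora1). Of the 14 that did not pass, 10 passed under no alternative. The number of receptor genes that rose was 5 under DESeq2 and 5 to 12 with 1 library left out; the number that fell was 19 to 21 with 1 library left out and 19 under DESeq2. Over all genes, 1296 (without shRybp replicate 2) to 1640 rose with 1 library left out, and 1189 fell under limma on log2(FPKM + 0.1), against 1970 and 2013 in the fit reported. Library totals without TMM moved the median log2 fold change of all genes to 0.04. The 11 partner genes that passed with a change of at least 1.5-fold, and Rybp, kept their calls under all 11 alternatives.

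The shared replicate numbers are not stated to mark a common origin. The deviations of the first replicates from their group means correlated weakly across 12062 genes (Pearson r = 0.103). With the replicate block 25 receptor genes fell and 12 rose, and Adgrb2, Adgrg1, F2r and S1pr2 passed in addition; over all genes 2652 fell and 2676 rose. With 2 libraries a group, and few counts for the lowest genes, values near the threshold are the least secure.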
